A study of Mus musculus with 10 samples.

Results

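Gprc5d, Prr9, Calhm4, Ctse, Fbp1 and Psors1c2 are 6 genes outside the keratin and keratin-associated protein families whose transcripts were strongly lower in ILK-deficient mouse epidermis. They were chosen for that difference, from 19938 genes represented by a probe set with a single symbol, and each of them has 1 probe set. The size of the genotype difference is therefore a description of the choice and carries no test, and the choice rests on no numerical limit. RNA was hybridised to 10 GeneChip Mouse Gene 1.0 ST Arrays, 1 per mouse, from dispase-separated epidermis of 3-day-old mice. ILK-deficient animals (5 arrays) carried KRT14-cre and were homozygous for the floxed Ilk allele, and ILK-expressing animals (5 arrays) carried the same transgene and were heterozygous for it, so the controls too had Cre and 1 floxed allele. The keratin 14 promoter directs Cre to keratinocytes, and cells of other lineages in the tissue retain Ilk. Values are the deposited log2 expression values, and a difference of 1 on this scale is a doubling. All 6 genes passed the filter on low values, which asked for 50 on the linear scale in no fewer than 5 arrays.

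The hair shaft is built from keratinocytes that leave the matrix at the base of the follicle, fill with hair keratins, cross-link them with keratin-associated proteins and die. The inner root sheath surrounds and moulds the growing shaft and uses its own keratins and trichohyalin. In mouse skin the follicles that form before birth are still growing in the days after it, so hair proteins are made in quantity at this age. Among the 6 genes, Gprc5d encodes an orphan G protein-coupled receptor found in the hair cortex. Prr9 encodes a small proline-rich protein of the epidermal differentiation complex, and Psors1c2 a secreted proline-rich protein whose gene lies beside that of corneodesmosin. Calhm4 encodes a subunit of the calcium homeostasis modulator channels, Ctse the endosomal aspartic protease cathepsin E, and Fbp1 fructose bisphosphatase, an enzyme of gluconeogenesis.

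Because the genes were low together and high together, the sequences ahead of their start sites, except that of Ctse, were searched for 5 motifs. Fbp1 held no match, and its sequence is not printed. The sequences of the 4 genes with a match are printed. They are the 150 bases before the RefSeq start on the transcribed strand (GRCm38.p6), with capitals at matches of the 5 motifs searched. The motifs, read on either strand, were TATAAA (the TATA box), CTTTGA (TCF and LEF factors), TAATTG (homeodomain factors such as DLX3), TGANTCA (AP-1) and TTTATNG (posterior HOX factors). A TTTATNG match on the other strand can share its bases with TATAAA.
Prr9, chr3:92123948-92124097, minus strand: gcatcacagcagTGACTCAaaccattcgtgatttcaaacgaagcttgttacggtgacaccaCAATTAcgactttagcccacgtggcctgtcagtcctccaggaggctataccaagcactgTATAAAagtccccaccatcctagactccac
Calhm4, chr10:34044314-34044463, minus strand: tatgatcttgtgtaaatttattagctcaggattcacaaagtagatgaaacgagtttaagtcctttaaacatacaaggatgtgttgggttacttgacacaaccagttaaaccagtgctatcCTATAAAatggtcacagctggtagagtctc
Psors1c2, chr17:35533051-35533200, plus strand: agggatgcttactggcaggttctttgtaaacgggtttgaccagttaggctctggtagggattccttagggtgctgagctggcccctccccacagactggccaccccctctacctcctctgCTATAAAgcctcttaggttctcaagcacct
Gprc5d, chr6:135118284-135118433, minus strand: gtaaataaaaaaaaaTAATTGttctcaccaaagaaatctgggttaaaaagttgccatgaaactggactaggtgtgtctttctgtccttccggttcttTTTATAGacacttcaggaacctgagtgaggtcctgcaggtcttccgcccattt

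TATAAA began at position -30 from the start in Prr9 and at position -29 in Calhm4 and Psors1c2. Of the 32851 promoters in the table, 2.63% held TATAAA in this orientation within the last 50 bases. Within the 250 bases searched and on either strand, 4 of the 5 promoters available held it, against 12.4% of all promoters, but in Gprc5d it lay on the other strand, inside the TTTATNG match shown. TAATTG occurred in Prr9 and Gprc5d (7.17% of all promoters), TGANTCA in Prr9 (6.75%) and CTTTGA in Calhm4 ahead of the bases shown (13.8%). TTTATNG matched in Gprc5d, Calhm4 and Psors1c2 (9.81%), and in the last 2 of these the match shared its bases with TATAAA. The promoter of Fbp1 held none of the 5 motifs, and that of Ctse was not analysed here. These are matches of letters, and binding was not measured.

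The median log2 value of an array lay between 7.07 and 7.17. The Ilk probe set pools exons across the transcript and so checks the deletion poorly. Its values were 8.75, 8.99, 9.07, 8.97 and 8.92 in ILK-deficient replicates 1 to 5 and 9.02, 9.01, 9.35, 9.08 and 9.38 in ILK-expressing replicates 1 to 5, so the genotypes overlapped. By single exons of the same arrays, the paper reports lower signal within the floxed region in ILK-deficient epidermis. It also reports far less ILK protein there by immunoblot. The labels also give each mouse a code, which they do not explain. ILK-deficient replicates 1 to 4 and ILK-expressing replicates 1 to 3 are coded D, ILK-deficient replicate 5 and ILK-expressing replicate 4 are coded D', and ILK-expressing replicate 5 is coded C'. ILK-expressing replicates 5 and 4 had the lowest mean correlation with the other 9 arrays, 0.974 and 0.976, where the remaining arrays had 0.979 to 0.984. Member values are therefore also given without them. Nothing in the labels says whether RNA of a genotype was prepared separately, and p values below measure the spread between these arrays.

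Gprc5d, the receptor of the hair cortex, was at 8.93, 9.86, 9.63, 11.38 and 11.17 in ILK-expressing replicates 1 to 5 and at 6.21, 6.32, 6.72, 6.24 and 6.08 in ILK-deficient replicates 1 to 5. The ILK-deficient mice sat within a narrow band, and the lowest ILK-expressing mouse lay 2.21 above the highest of them. The means were 10.19 ± 1.05 (SD, n = 5) and 6.31 ± 0.242 (SD, n = 5), a log2 difference of -3.88, or 14.7-fold lower in ILK-deficient epidermis.

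Psors1c2, the proline-rich protein gene, was at 7.30, 8.60, 8.11, 10.19 and 10.08 in the ILK-expressing mice and at 6.75, 6.76, 6.86, 6.72 and 6.40 in the ILK-deficient mice, in the same order. It had the narrowest gap among the 6 genes, 0.45 between ILK-expressing replicate 1 and the highest ILK-deficient mouse, but the genotypes did not overlap. The means were 8.86 ± 1.26 (SD, n = 5) and 6.70 ± 0.176 (SD, n = 5), a difference of -2.16, or 4.47-fold lower.

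Calhm4, the channel subunit, was at 8.95, 9.97, 9.05, 11.88 and 11.32 in ILK-expressing and at 6.49, 6.82, 6.90, 7.16 and 6.77 in ILK-deficient mice. ILK-expressing replicates 1 and 3 were close to each other, and replicates 4 and 5 far above them. The means were 10.23 ± 1.33 (SD, n = 5) and 6.83 ± 0.243 (SD, n = 5), a difference of -3.41, or 10.6-fold lower.

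Prr9, the gene of the epidermal differentiation complex, showed the largest difference of all genes tested outside the keratin families. Its values were 10.87, 11.53, 10.22, 13.10 and 12.38 in ILK-expressing and 6.70, 7.84, 7.76, 7.10 and 7.00 in ILK-deficient mice. In the ILK-deficient group, replicates 2 and 3 stood above the other 3 mice, a spread wider than that of any of the other 5 genes there. The means were 11.62 ± 1.15 (SD, n = 5) and 7.28 ± 0.498 (SD, n = 5), a difference of -4.34, or 20.2-fold lower.

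Ctse, encoding cathepsin E, was at 9.36, 10.24, 8.68, 12.18 and 11.57 in ILK-expressing and at 6.74, 7.14, 6.95, 6.89 and 6.95 in ILK-deficient mice. The means were 10.41 ± 1.47 (SD, n = 5) and 6.93 ± 0.143 (SD, n = 5), a difference of -3.47, or 11.1-fold lower. Of the 6 genes it had the widest spread among ILK-expressing mice and the narrowest among ILK-deficient mice.

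Fbp1, the gluconeogenic enzyme gene, was at 8.66, 9.80, 7.78, 11.07 and 10.38 in ILK-expressing and at 5.98, 6.16, 6.53, 5.87 and 6.05 in ILK-deficient mice. Replicate 3 was the lowest ILK-expressing mouse for Fbp1, Ctse and Prr9, whereas replicate 1 was the lowest for Gprc5d, Psors1c2 and Calhm4. The means of Fbp1 were 9.54 ± 1.32 (SD, n = 5) and 6.12 ± 0.252 (SD, n = 5), a difference of -3.42, or 10.7-fold lower.

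**Figure D1:**
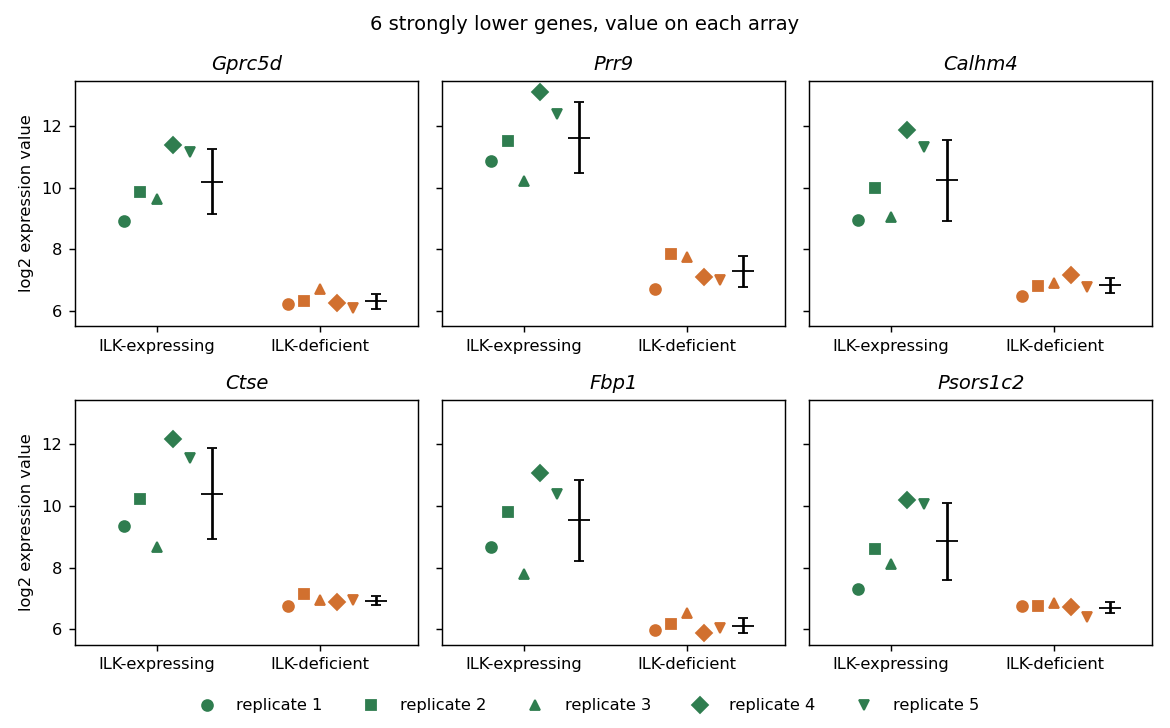
Log2 expression value (vertical axis) of the 6 genes on each array, with 1 symbol per replicate, and the mean with SD of each genotype at the right of its points (n = 5). ILK-deficient mice lie below ILK-expressing mice for every gene, by a gap of 0.45 for Psors1c2 and 2.38 for Prr9, and ILK-expressing replicates 4 and 5 are the highest in all 6 panels.

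For none of the 6 genes did the genotypes overlap, which held with a lower value in ILK-deficient epidermis for 1.96% of all 32046 probe sets tested. By limma's moderated test, 0.97% of all probe sets were lower and 2.81% higher at an adjusted p under 0.05. Since the 6 genes were chosen on this contrast, nothing is read from their count. Keratin families were recognised by symbol alone, beginning with Krtap or with Krt and a digit. A gene of these families under another symbol, such as a Gm number, would stay in the order. Among the 18027 genes tested outside the keratin families so defined, ordered by the size of the fall, the 6 genes stood at places 1 (Prr9), 3 (Gprc5d), 5 (Ctse), 6 (Fbp1), 7 (Calhm4) and 19 (Psors1c2). The 6 genes with the largest differences that are not among them were Tchh, the trichohyalin gene (-4.08), Gm11559 (-3.83), Lyg2, a lysozyme family gene (-3.11), Crnn, encoding cornulin (-3.11), Dsg4, a desmosomal cadherin gene (-2.99), and S100a3, a calcium-binding protein gene of the hair cuticle (-2.92). Padi3, at place 18 with -2.19, lay next to Psors1c2 in this order. In epidermis taken as a whole, fewer cells of a type and less RNA per cell cannot be told apart. The table holds no detection calls, so whether any of the 6 transcripts was above background in ILK-deficient mice was not tested, and a fold against a value at background understates the change.

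The 6 genes varied far more among ILK-expressing than among ILK-deficient mice. The SD was larger in the ILK-expressing group by 2.31 times for Prr9, 4.32 for Gprc5d, 5.25 for Fbp1, 5.46 for Calhm4, 7.16 for Psors1c2 and 10.2 for Ctse. For the 6 largest other falls named above, it was larger by 1.44 (Gm11559) to 7.64 times (Lyg2), so this was not particular to the genes described. Whether low values narrowed the spread in ILK-deficient mice was not tested. On the linear scale, the highest ILK-expressing mouse exceeded the lowest by 5.47-fold for Gprc5d and 11.3-fold for Ctse, with the other 4 genes between these.

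ILK-expressing replicates 4 and 5, the mice coded D' and C', were the highest for each of the 6 genes. Their mean exceeded that of the 3 ILK-expressing mice coded D by 1.80 for Gprc5d, 1.87 for Prr9, 1.98 for Fbp1, 2.13 for Psors1c2, 2.28 for Calhm4 and 2.45 for Ctse. Over all 18121 genes tested, this difference had a median of 0.0131, with the middle 90% between -0.205 and 0.370, and the 6 genes stood at places 20 (Ctse) to 62 (Gprc5d) from the top. The genes were chosen on a genotype difference that includes these arrays, so the places are a description. Among the 6 largest other falls named above, this difference ran from 1.26 (Tchh) to 2.93 (Lyg2), so it was not particular to the genes described. With 2 mice against 3 and codes of unknown meaning, the difference has no test, and the part of the code in it cannot be told apart from that of the individual mouse. The ILK-deficient mouse coded D', replicate 5, was the highest of its genotype for none of the 6 genes. For Gprc5d and Psors1c2 it was the lowest of the 5.

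Genotypes that do not overlap over all arrays cannot overlap in a part of them, so overlap within the 7 mice coded D checks nothing. Among these mice, 4 ILK-deficient and 3 ILK-expressing, the differences were smaller. They were -3.10 for Gprc5d, -3.52 for Prr9, -2.48 for Calhm4, -2.50 for Ctse, -2.61 for Fbp1 and -1.23 for Psors1c2. The pair coded D', 1 mouse of each genotype, differed by -5.30 for Gprc5d, -6.10 for Prr9, -5.12 for Calhm4, -5.23 for Ctse, -5.02 for Fbp1 and -3.80 for Psors1c2. With ILK-expressing replicate 5 alone left out, the differences lay between -4.15 (Prr9) and -1.86 (Psors1c2). Leaving out both ILK-expressing replicates 4 and 5 was chosen after seeing the data. The differences were then -3.16 for Gprc5d, -3.59 for Prr9, -2.50 for Calhm4, -2.49 for Ctse, -2.63 for Fbp1 and -1.31 for Psors1c2.

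The spread among mice of 1 genotype was not used in choosing the genes, and it was compared with the level of marker lists. For each array, the deviation of a gene from its genotype mean was set against that of the mean of a list, over 10 arrays. Exact permutation tests within genotypes, two-sided, were adjusted over 24 relations (6 genes, 4 lists). The lists were 12 hair keratins, 9 inner root sheath genes (8 keratins and Tchh), 14 sebaceous gland genes and 23 genes of the cornified envelope, the protein shell of surface keratinocytes. Since ILK-deficient mice varied little, these coefficients rest mainly on the 5 ILK-expressing mice, and the arrays share their processing. The permutations also reorder the ILK-deficient mice, so a p value can be smaller than the 5 ILK-expressing mice alone could give.

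Gprc5d, Psors1c2 and Calhm4 varied with the hair keratins when the list was summarised by its mean, and these calls ended when it was summarised by its median. For Gprc5d, r was 0.976 with Spearman's rho 0.976 (exact permutation p = 0.000694, adjusted p = 0.00458, and adjusted p = 0.0117 for rho), and r was 0.957 without the 2 arrays farthest from the list's median. For Calhm4, r was 0.983 with rho 0.976 (exact permutation p = 0.000486, adjusted p = 0.00458, and adjusted p = 0.00583 for rho), and 0.956 without the 2 farthest arrays. For Psors1c2, r was 0.972 with rho 0.915 (exact permutation p = 0.00229, adjusted p = 0.00917, and adjusted p = 0.0298 for rho), and 0.960 without them. Against the median of the hair keratins, r was 0.899 for Gprc5d, 0.949 for Calhm4 and 0.914 for Psors1c2, none past the test (exact permutation test, adjusted p = 0.0849, 0.069 and 0.104). With the inner root sheath list, r was 0.842 for Gprc5d and 0.817 for Psors1c2, which did not pass (exact permutation test, adjusted p = 0.0865 and 0.112), although their rho of 0.903 did (adjusted p = 0.029 and 0.0298). Calhm4 passed with this list too (r = 0.909, rho = 0.891, exact permutation test, adjusted p = 0.0248 and 0.0298).

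Prr9 and Fbp1 varied with the inner root sheath genes. For Prr9, r was 0.982 with rho 0.988 (exact permutation p = 0.000278, adjusted p = 0.00458, and adjusted p = 0.00583 for rho), and 0.948 without the 2 farthest arrays. For Fbp1, r was 0.960 with rho 0.952 (exact permutation p = 0.000764, adjusted p = 0.00458, and adjusted p = 0.0117 for rho), and 0.879 without them. With the hair keratins, r was 0.883 for Prr9 (rho = 0.867, exact permutation test, adjusted p = 0.0262 and 0.0356) and 0.877 for Fbp1, which did not pass (rho = 0.794, adjusted p = 0.11 and 0.109). Ctse lay near both lists, with r = 0.945 for hair keratins (rho = 0.879, exact permutation test, adjusted p = 0.0424 and 0.0411) and r = 0.935 for the inner root sheath (rho = 0.891, adjusted p = 0.00917 and 0.0298). Against the median of the hair keratins, Prr9 (r = 0.888) and Ctse (r = 0.969) did not pass either (exact permutation test, adjusted p = 0.0515 for each), whereas Prr9, Fbp1, Ctse and Calhm4 still passed against the median of the inner root sheath list. For Fbp1 the order of the lists turned with the medians, at r = 0.923 for hair keratins (adjusted p = 0.069) and 0.919 for the inner root sheath (exact permutation test, adjusted p = 0.00917). Whether the coefficients of a gene with the 2 lists differ was not tested.

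None of the 6 genes passed with the cornified envelope list (r from 0.571 to 0.725, exact permutation test, adjusted p from 0.162 to 0.227). With the sebaceous gland list, r ran from 0.694 to 0.848 and none passed (adjusted p from 0.112 to 0.22), while Ctse passed by rho alone (0.891, adjusted p = 0.0356).

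With any single mouse left out, Gprc5d and Calhm4 with the hair keratins and Prr9, Fbp1 and Ctse with the inner root sheath still passed. Psors1c2 with the hair keratins did not pass without ILK-expressing replicate 1 or 2 (exact permutation test, adjusted p = 0.0521 and 0.112). Prr9 and Ctse with the hair keratins and Calhm4 with the inner root sheath did not pass without ILK-deficient replicate 1 or ILK-expressing replicate 2, 4 or 5, nor did Ctse without ILK-expressing replicate 1 (exact permutation tests, adjusted p from 0.0521 to 0.271). Fbp1 with the hair keratins and Gprc5d with the inner root sheath passed without ILK-expressing replicate 1 or 3, as did Psors1c2 with the inner root sheath without ILK-expressing replicate 1.

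Within the 7 mice coded D, Gprc5d, Psors1c2 and Calhm4 again had the higher r with hair keratins and Prr9, Fbp1 and now Ctse with the inner root sheath, but no relation passed. With the hair keratins, r was 0.905 for Gprc5d, 0.882 for Psors1c2 and 0.880 for Calhm4, against 0.48, 0.40 and 0.76 with the inner root sheath. With the inner root sheath, r was 0.957 for Prr9, 0.885 for Fbp1 and 0.857 for Ctse, against 0.555, 0.587 and 0.548 with the hair keratins (exact permutation tests, adjusted p from 0.25 to 0.742 over these 12 relations).

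**Figure D2:**
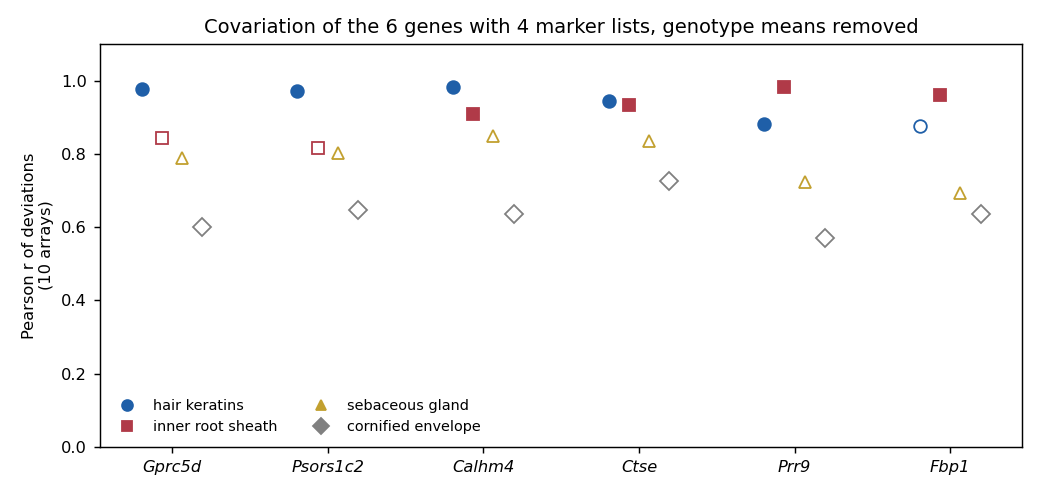
Pearson's r (vertical axis, from 0) between the deviations of each gene and of the mean of a marker list from their genotype means, over 10 arrays, with filled symbols at an adjusted permutation p under 0.05. Gprc5d, Psors1c2 and Calhm4 have their highest r with hair keratins (0.972 to 0.983), Prr9 and Fbp1 with the inner root sheath (0.982 and 0.960).

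**Figure D3:**
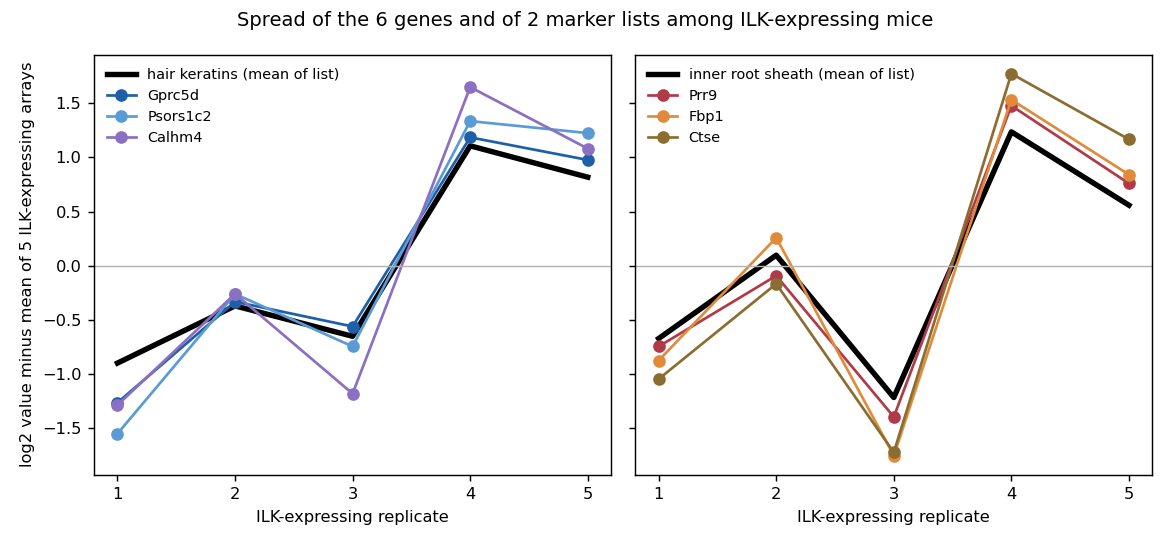
Log2 value on each ILK-expressing array minus the mean of the 5 (vertical axis), for 3 genes with the hair keratin list (left) and 3 with the inner root sheath list (right). Replicates 4 and 5 are above the mean in all lines, and replicate 3 is the lowest point of the inner root sheath line and of Prr9, Fbp1 and Ctse.

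The genes differed in direction between ILK-expressing replicates 1 and 3, a pair picked after the values were seen. A division by this direction only restates the order of these mice, so it is no separate evidence for 2 sets of genes. Over all 10 arrays, Ctse had r = 0.945 with the hair keratins and 0.935 with the inner root sheath. Calhm4 passed with both lists. From replicate 1 to replicate 3, Gprc5d was higher by 0.70, Psors1c2 by 0.81 and Calhm4 by 0.11, while Prr9 was at -0.65, Ctse at -0.68 and Fbp1 at -0.88. Of the 12 hair keratins, 9 were higher in replicate 3 (median 0.17, from -0.88 to 1.37), and of the 9 inner root sheath genes, 8 were lower (median -0.54, from -0.92 to 0.01). Of the 23 cornified envelope genes, 20 were lower as well (median -0.31), and of 15 other hair shaft genes, 12 (median -0.24). Over all genes tested the median was 0.0251, with the middle 90% between -0.252 and 0.379. This is 1 array of each mouse and has no test.

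**Figure D4:**
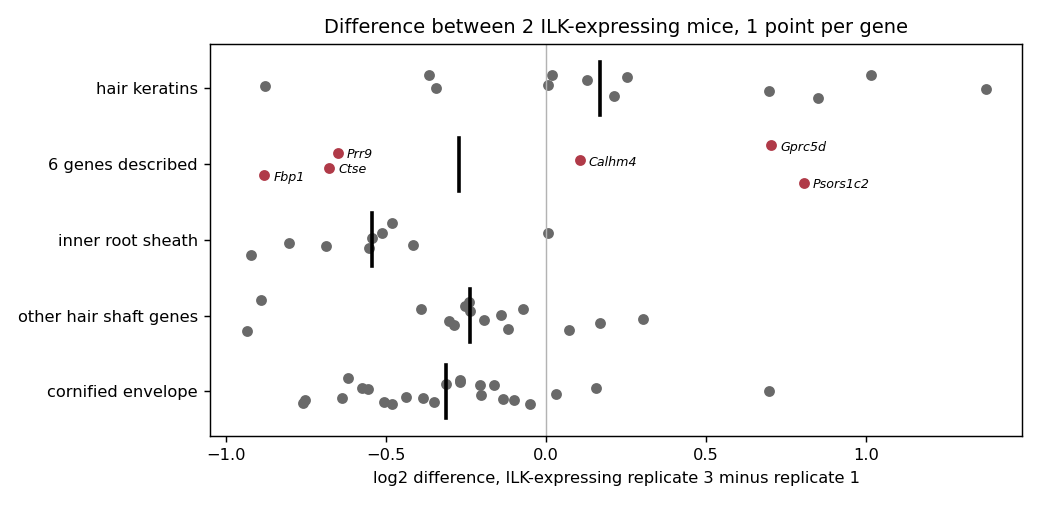
Log2 difference between ILK-expressing replicates 3 and 1 (horizontal axis), 1 point per gene, with a bar at the median of each group. Psors1c2 and Gprc5d lie at 0.81 and 0.70 with the upper part of the hair keratins, and Fbp1, Ctse and Prr9 at -0.88 to -0.65 with the inner root sheath genes.

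The genes whose deviations were most like those of each member, over the same 10 arrays and among 18121 genes, were given as a description. For Gprc5d these were Psors1c2 (r = 0.986), Krt87 (0.985), Krtap13-1 (0.985), Krtap11-1 (0.980) and Krt31 (0.972). For Psors1c2 they were Gprc5d (0.986), Krtap13-1 (0.986), Krt32 (0.978), Krtap1-5 (0.977) and Krt87 (0.976). Apart from Psors1c2 and Gprc5d themselves, these are keratins and keratin-associated proteins of the shaft. For Prr9 they were Krt27 (0.979) and Krt72 (0.970), keratins of the inner root sheath, then Slc23a3 (0.962), Gabrp (0.947) and Krt75 (0.946), a companion layer keratin. For Fbp1 they were Srms (0.977), Krt28 (0.976), Crym (0.976), Pkp2 (0.966) and Ctse (0.966). For Ctse they were Sytl2 (0.993), Krt26 (0.989), Acsm3 (0.987), Wnt11 (0.986) and Krt82 (0.985), and for Calhm4 Ly6g6g (0.990), Acsm3 (0.988), Actbl2 (0.986), Cryba4 (0.986) and Krt32 (0.985).

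Among the 50 most alike genes, keratins and keratin-associated proteins made up 42% for Gprc5d, 36% for Psors1c2, 24% for Calhm4, 22% for Prr9, 18% for Fbp1 and 16% for Ctse, where they are 0.519% of all genes tested. Keratin-associated proteins numbered 14 of 50 for Gprc5d and 11 for Psors1c2, but 3 for Prr9, 2 for Ctse and 1 for Fbp1. Among the 6 genes themselves, the 15 pairwise r ran from 0.833 for Prr9 with Psors1c2 to 0.986 for Gprc5d with Psors1c2.

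A gene could vary like a member among mice without being lower in ILK-deficient epidermis. Wnt11, a secreted Wnt ligand, was at 6.30, 6.42, 5.98, 6.92 and 6.87 in the ILK-expressing mice, in the same order as Ctse. In the ILK-deficient mice it was at 6.54 ± 0.0444 (SD, n = 5), so that its genotype means differed by 0.04 where those of Ctse differed by -3.47. Slc23a3, likewise near Prr9, differed by -0.05 between the genotype means, with ILK-expressing values from 6.27 to 6.48.

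The keratin and inner root sheath markers bear on the name of hair shaft genes. In ILK-deficient epidermis, 7 of 12 hair keratins passed as lower and none as higher (limma, adjusted p under 0.05, with 11 lower and none higher at an unadjusted p under 0.05 and 3 lower and none higher by the methods' analysis of variance), with a median log2 difference of -1.68 against 0.00 over all probe sets tested. Of the inner root sheath genes, 8 of 9 were lower, and none higher (9 and none unadjusted, 7 and none by analysis of variance), with a median of -3.62. The summed linear level of the hair keratins ran from 1172 to 1618 in ILK-deficient and from 4183 to 24043 in ILK-expressing mice, and that of the inner root sheath genes from 1335 to 3729 and from 11065 to 58913. Both compartments were thus lower together with the 6 genes. These arrays give no position within the follicle, and for Prr9 the closer list was that of the inner root sheath, while for Fbp1 the closer list changed with the list summary. The name hair shaft is used for them only as the name of the set.

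Of 15 other genes of the hair shaft and its regulators, 7 were lower and none was higher (limma, adjusted p under 0.05, with 10 lower and none higher unadjusted and 2 lower and none higher by analysis of variance), with a median difference of -0.80. This list was written with earlier results of these arrays known, so that its count is not independent evidence. S100a3, the calcium-binding protein of the cuticle, fell by 2.92 on the log2 scale (standard error 0.357, adjusted p = 0.00304), and Dsg4, the cadherin of shaft desmosomes, fell by 2.99 (standard error 0.551, adjusted p = 0.0167). Crym, a thyroid hormone-binding protein, fell by 2.83 (adjusted p = 0.0187), and Padi3, which converts arginines of trichohyalin and S100A3 to citrulline, fell by 2.19 (adjusted p = 0.0355). The other 3, named after their values were seen, were Vsig8 (-1.51, adjusted p = 0.0321), Dlx3 (-0.80, adjusted p = 0.0332) and Lpar6 (-0.42, adjusted p = 0.0233). With each mouse left out in turn, S100a3, Dsg4 and Crym still passed (adjusted p up to 0.0493), though Crym did not under 3 of the 22 other settings, the mice coded D among them, nor Dsg4 under 1, analysis of variance. Padi3 did not without any 1 of the 5 ILK-deficient mice or ILK-expressing replicate 2 or 5 (adjusted p up to 0.0868), Vsig8 without any 1 of the ILK-deficient mice or ILK-expressing replicate 4 (up to 0.0821), Dlx3 without ILK-deficient replicate 1, 3, 4 or 5 or ILK-expressing replicate 2 or 4 (up to 0.0879), and Lpar6 without ILK-deficient replicate 1 or 4 (up to 0.0573). Foxn1 and Lef1, transcription factors that act ahead of shaft keratins, were at -0.11 (adjusted p = 0.865) and 0.07 (adjusted p = 0.944).

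The relatives of the 6 genes were mostly not lower. In the Gprc5 family, Gprc5b rose by 0.81 (limma, standard error 0.158, adjusted p = 0.0213), with means of 6.83 ± 0.125 (SD, n = 5) for ILK-expressing and 7.64 ± 0.370 (SD, n = 5) for ILK-deficient mice. Gprc5a, the neighbour of Gprc5d on the chromosome, had means of 7.29 ± 0.918 (SD, n = 5) for ILK-expressing and 6.12 ± 0.163 (SD, n = 5) for ILK-deficient mice without overlap, but did not pass (-1.17, adjusted p = 0.119), and Gprc5c was at 0.14 (adjusted p = 0.673). Gprc5b did not pass without ILK-deficient replicate 2 or 5 or ILK-expressing replicate 4 (adjusted p up to 0.0608). None of these 3 was lower by limma, where the unadjusted test gave 1 and analysis of variance none. Of 3 other Calhm genes tested, limma called none, with or without adjustment, nor did analysis of variance, among them Calhm5, beside Calhm4 (-0.12, adjusted p = 0.948), and Calhm2 (0.06, adjusted p = 0.888).

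Of 6 aspartic proteases related to cathepsin E, none was lower (limma, where the unadjusted test gave 1 and analysis of variance none) and 1 was higher, the secretase gene Bace2 (0.81, standard error 0.178, adjusted p = 0.0332, with overlapping genotypes). Asprv1, the stratum corneum protease, was at -0.13 (adjusted p = 0.355) and Ctsd, the lysosomal cathepsin D, at -0.27 (adjusted p = 0.251). Of 11 cathepsins of other classes, 1 was lower and 1 higher. Ctsc, which activates granule serine proteases, fell by 0.81 (standard error 0.102, adjusted p = 0.00355), and Ctss, a cathepsin of antigen-presenting cells, rose by 0.38 (adjusted p = 0.0394). Ctsc passed with any mouse left out. Bace2 did not pass under 7 of the 10 omissions (all but ILK-deficient replicates 1 and 3 and ILK-expressing replicate 5, adjusted p up to 0.0803), and Ctss under 8 (all but ILK-deficient replicate 4 and ILK-expressing replicate 3, up to 0.103). Ctsa and Ctsb, both abundant, were at -0.05 (adjusted p = 0.85) and -0.14 (adjusted p = 0.761).

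Around Fbp1, 20 genes of gluconeogenesis and glycolysis had a median difference of -0.23, with 3 lower and 1 higher (limma, with 9 lower and 1 higher unadjusted and 1 lower and 1 higher by analysis of variance). Pcx, the pyruvate carboxylase of gluconeogenesis, fell by 0.50 (standard error 0.105, adjusted p = 0.0273), and the glycolytic genes Aldoa and Ldha fell by 0.43 and fell by 0.40 (adjusted p = 0.0261 and 0.0232). Pck2, the mitochondrial phosphoenolpyruvate carboxykinase, rose by 0.38 (adjusted p = 0.0155). Pck2 passed with any single mouse left out but not under 3 of the 22 other settings, the mice coded D among them. Pcx did not pass without ILK-deficient replicate 1, 2, 3 or 5 or ILK-expressing replicate 3 or 4 (adjusted p up to 0.0705), Aldoa without ILK-deficient replicate 1, 4 or 5 or ILK-expressing replicate 3 or 4 (up to 0.0696), and Ldha without ILK-deficient replicate 4 or 5 or ILK-expressing replicate 1 or 4 (up to 0.0619). Hk1 and Pgk1 were at 0.10 (adjusted p = 0.601) and -0.34 (adjusted p = 0.123). Fbp2, the muscle isoenzyme whose gene lies beside Fbp1, was at 0.08 (adjusted p = 0.712). None of these approached the -3.42 of Fbp1. Of 14 small proline-rich protein genes and genes of similar name, limma called none (1 lower and none higher unadjusted, none by analysis of variance), with a median of 0.02. Among them Sprr1a was at -0.54 (adjusted p = 0.202) and Sprr1b at 0.04 (adjusted p = 0.945).

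Most chromosomal neighbours of the 6 genes did not share their difference. Of 47 genes tested among the 5 protein-coding genes on each side of each member (RefSeq order, GRCm38.p6), 1 was lower and 3 were higher, with a median of -0.02, where 0.97% and 2.81% of all probe sets were called. Unadjusted, 6 were lower and 6 higher, and analysis of variance called none lower and 3 higher. Gprc5a beside Gprc5d (-1.17) and Pm20d1 near Ctse (-0.38) were lower without overlap but did not pass (limma, adjusted p = 0.119 and 0.0837). Of all probe sets tested, 1.96% were lower without overlap. Without overlap, 4 neighbours were higher. The share of all probe sets higher without overlap was not computed, so nothing is read from this count. Lor and Cdsn, encoding loricrin and corneodesmosin of the cornified envelope and lying next to Prr9 and Psors1c2, were at -0.15 (adjusted p = 0.328) and -0.26 (adjusted p = 0.355). Aopep, on the other side of Fbp1 from Fbp2, rose by 0.56 (limma, standard error 0.0904, adjusted p = 0.00947). Cdkn1b, the cell cycle inhibitor p27 near Gprc5d, rose by 0.55 (adjusted p = 0.00537), and Rsph4a, a ciliary gene near Calhm4, rose by 0.36 (adjusted p = 0.00904). Slc26a9, an anion transporter gene near Ctse, fell by 0.50 (adjusted p = 0.0487), but did not pass under 17 of the 22 other settings tried, among them the omission of any mouse but ILK-expressing replicate 2 (adjusted p up to 0.104). Aopep, Cdkn1b and Rsph4a passed with any single mouse left out (adjusted p up to 0.0305), but none of them passed among the mice coded D. Aopep did not pass under 3 of its 22 other settings, Rsph4a under 3 of 21 and Cdkn1b under 1 of 22.

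**Figure D5:**
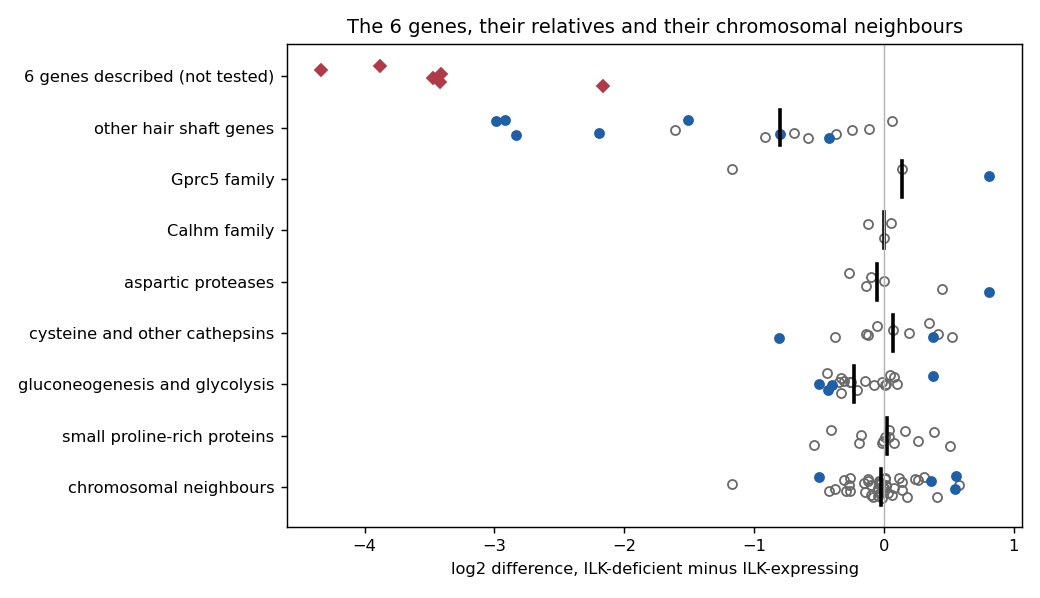
Log2 difference, ILK-deficient minus ILK-expressing (horizontal axis), of the 6 genes and of the genes of 8 lists, 1 point per gene, with circles filled where limma's adjusted p was under 0.05 and a line marking the median of a list. The 6 genes lie between -4.34 and -2.16, and the other hair shaft genes, with a median of -0.80, come nearest to them.

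Markers of other cells were measured beside the 6 genes. In ILK-deficient mice, 5 of 7 melanocyte genes were higher, and none lower (limma, with 7 and none unadjusted and 1 and none by analysis of variance), with a summed linear level of 7140 to 13397 against 1980 to 4910. Of 7 dermal fibroblast genes, 4 endothelial genes and 4 adipocyte genes, none was called (limma, with 1, none and none higher and none lower unadjusted, and none by analysis of variance), and their summed levels were 3653 to 6781 against 1596 to 5559, 214 to 242 against 217 to 232, and 293 to 404 against 326 to 806. Of 7 macrophage genes, 1 was higher and none lower (4 higher and none lower unadjusted, 1 higher and none lower by analysis of variance). Of 4 suprabasal keratinocyte genes none was called (1 lower unadjusted, none by analysis of variance), and of 7 basal keratinocyte genes 1 was lower and 1 higher (2 and 1 unadjusted, 1 and 1 by analysis of variance). Of 14 sebaceous gland genes 1 was lower and none higher (7 lower and none higher unadjusted, none by analysis of variance), 13 were below 0 and the median difference was -0.69, at a summed level of 6955 to 10813 against 8993 to 20433. Of 23 cornified envelope genes none was called (4 lower unadjusted, none by analysis of variance). The part of any of these cells in the level of the 6 genes was not tested.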

How the data were processed

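RNA of the epidermis of 5 ILK-deficient and 5 ILK-expressing mice was hybridised to GeneChip Mouse Gene 1.0 ST Arrays. The authors background-adjusted, quantile-normalized and summarised the scans, and the deposited log2 values per probe set were used as they are. Their methods name both GC-RMA and RMA Express and do not state which made the table. Array number, not read depth, limits precision.

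Genotypes came from the sample labels. Probe sets were named by the platform annotation (21789 with 1 symbol, 1621 with several, 12146 with none), and a gene with several probe sets is represented by the one of highest mean. Of 35556 probe sets, 3510 were left out as under 50 and 32046 were compared in R 4.3.3 with limma 3.58.1 (lmFit, eBayes), adjusted by Benjamini-Hochberg over all of them, after a test on simulated data. Covariation was computed with numpy 2.4.6 over all 14400 permutations within genotypes. The alternatives changed filter, scaling, probe set, test, block, list summary or arrays.

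The members and gene lists were chosen with earlier results of these data known. Named genes are the members, the 5 most alike genes of each, the 6 largest other falls outside keratin families, and of each list up to 4 past the test and 2 abundant ones that were not. Fbp2, Cdsn and others so marked were added for their position or after their values were seen. Protein sequences were not used here.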

Additional observations from a re-analysis of the deposited data

Results flagged for a closer look

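Of 128 groups of 5 arrays examined, 3 held a mouse far from the other 4, where chance gives about 1 in 20 groups. For Gabrp, one of the genes most like Prr9, ILK-deficient replicate 3 was the highest at a log2 value of 9.20, with the other 4 ILK-deficient mice between 8.20 and 8.44. For Lef1, ILK-expressing replicate 4 was the lowest at 8.74, with the other 4 ILK-expressing mice between 9.60 and 9.88, and this mouse was the highest of its genotype for all 6 hair genes. For Hk1, ILK-deficient replicate 1 was the lowest at 12.93, with the other 4 between 13.16 and 13.25.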

How the results depend on the processing

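The log2 differences of the 6 genes lay below 0 under all 18 settings tried, but this is little of a check. Genes chosen as lower and without overlap stay below 0 whichever arrays are left out. The replicate block and the mean of all probe sets returned the main values. The differences moved by over 1 SD only among mice coded D, for Gprc5d (-3.10) and Psors1c2 (-1.23). No pairing by replicate number was seen: deviations of same-numbered mice correlated at -0.296 to 0.113, and none of the 5 ILK-deficient mice was closest to its own number. With 5 mice of each genotype this cannot exclude a pairing with a small effect. With the replicate number as a block, 1 cathepsin, 0 gluconeogenesis and glycolysis genes, 3 other hair shaft genes and 1 neighbour were called, and r of Prr9 with hair keratins (0.903, exact permutation test, adjusted p = 0.0787) and of Calhm4 with the inner root sheath (0.890, adjusted p = 0.0908) no longer passed. With this block, 3 relations with the cornified envelope came to pass, those of Gprc5d (r = 0.937, exact permutation test, adjusted p = 0.04), Calhm4 (0.924, adjusted p = 0.0468) and Psors1c2 (0.920, adjusted p = 0.0468). Analysis of variance called 0 Gprc5 genes, 0 aspartic proteases, 1 cathepsin, 2 gluconeogenesis and glycolysis genes and 2 other hair shaft genes. Median centring called 0 aspartic proteases and 1 cathepsin, limma with trend and robust 1 cathepsin, and the label code as a block 0 Gprc5 genes and 1 cathepsin. Averaging the probe sets of a gene, with fewer tests, called 2 aspartic proteases, 4 cathepsins and 7 neighbours. Among mice coded D, 0 Gprc5 genes, 0 aspartic proteases, 1 cathepsin, 0 gluconeogenesis and glycolysis genes, 4 other hair shaft genes and 0 neighbours were called. Without ILK-expressing replicates 4 and 5, an alternative chosen after seeing the data, the counts were 0, 0, 1 and 0 for the first 4 of these lists and 1 neighbour.

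Leaving out each mouse in turn gave 0 to 1 Gprc5 genes, 0 to 1 aspartic proteases, 1 to 2 cathepsins, 1 to 4 gluconeogenesis and glycolysis genes and 3 to 9 other hair shaft genes. The count of 3 other hair shaft genes came without ILK-deficient replicate 1 or 4, and of 4 without ILK-deficient replicate 3 or 5. With the median of the hair keratins in place of the mean, r was 0.899 for Gprc5d, 0.888 for Prr9, 0.949 for Calhm4, 0.969 for Ctse, 0.914 for Psors1c2 and 0.923 for Fbp1 (whose r with the median of the inner root sheath was 0.919), none past the test with hair keratins (exact permutation test, adjusted p from 0.0515 to 0.104). With the mean and only mice coded D, r for Gprc5d, Prr9, Calhm4, Ctse and Psors1c2 in this order was 0.905, 0.555, 0.880, 0.548 and 0.882, and without ILK-expressing replicates 4 and 5 it was 0.894, 0.566, 0.879, 0.540 and 0.867, none past the test. Leaving out each mouse gave 0.788 to 0.914 for Prr9, 0.898 to 0.985 for Ctse, 0.785 to 0.934 for Fbp1 and 0.963 to 0.978 for Psors1c2 with hair keratins. The cause of these changes was not tested, except that leaving out arrays leaves fewer permutations.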
